A study of Mus musculus with 40 samples.

Results

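The comparison is between mice fed 2.5% broccoli powder and mice fed 0.5% broccoli powder, read through the bacterial RNA of their cecal contents. Members were chosen by the treatment label, which gave 10 libraries labelled 2.5_BP and 10 labelled 0.5_BP, 20 of the 40 libraries of the series. All of these animals were C57BL/6 mice that began the Total Western Diet, a chow built on Western human nutrient intakes, at 3 weeks of age. They ate it plain for 6 weeks and then with the broccoli powder mixed in for 3 more weeks, so both groups carried the Western diet and both received broccoli. Groups fed 0% and 1% broccoli are not compared here: the 0% group defines a class of features without counts there, and both enter 1 alternative fit. Raw counts were deposited in 6 tables, 1 for each bacterial genome, which together hold 18455 features. The tables are named F.rodentium, L.bacterium335, Acetatifactor, X.muris, D.muris and Alistipes. The names are kept as deposited, because the sources used here do not spell them out.

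The cecum is the main fermentation chamber of the mouse gut. Bacteria there break down fibre and host glycans that the small intestine leaves behind, and release acetate, propionate and butyrate. Broccoli supplies plant cell wall sugars such as pectin, arabinose and galactose units, together with glucosinolates. Bacteria differ in how they take up sugars: some use the phosphotransferase system (PTS), which phosphorylates a sugar as it enters, others use ABC transporters driven by ATP, and members of the Bacteroidota use outer-membrane SusC and SusD proteins.

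The 6 tables together held 236483 to 5107249 counts per library, with a median of 970442.5 at 0.5% and 889232.5 at 2.5%. Genes were tested within a genome over the libraries with at least 10000 counts on it. This kept 10 libraries at each dose for Acetatifactor and L.bacterium335, 9 and 9 for D.muris, 10 at 0.5% and 8 at 2.5% for F.rodentium, and 7 and 9 for X.muris. In Alistipes 0 libraries at 0.5% and 7 at 2.5% reached the minimum, so its genes had no test under it. The library 2.5% replicate 9 stood apart in several genomes. It held 51.7% of its counts on Acetatifactor, 352 counts on F.rodentium and 2435 counts on X.muris spread over 13 features. In L.bacterium335 it had 79.1% of its counts on 5 features, and values that moved by more than 1.5 times without it are also given without it. The labels number the libraries, and 4 of those at 0.5% and 1 of those at 2.5% carry the numbers 76 to 81. What sets these numbers apart is not stated, and with 1 library at 2.5% no comparison within them could be made.

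F.rodentium supplied most of the counts at 0.5% and a small part of them at 2.5%. Its share was 76.1% ± 13.2 (SD, n = 10) of the six-table total at 0.5% and 10.7% ± 10.6 (SD, n = 10) at 2.5%. The lowest, median and highest were 56.4, 78.3 and 95.6% at 0.5%, and 0.0194, 6.32 and 31.6% at 2.5%. The groups did not overlap, and the difference was -65.4 percentage points (permutation test, two-sided, adjusted p = 4e-05 over the 6 shares). L.bacterium335 rose from 11.2% ± 7.52 to 50.4% ± 8.88 (SD, n = 10 each; permutation test, adjusted p = 4e-05). Its highest share at 0.5% was 21.6% and its lowest at 2.5% was 33.98%, so these groups did not overlap either. Before adjustment, 2e-05 is the smallest p available from these permutations.

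Alistipes, a genus of the Bacteroidota, was the least counted genome and had a large relative rise. Its share was 0.0626% ± 0.0794 at 0.5% and 1.58% ± 0.981 at 2.5% (SD, n = 10 each; permutation test, adjusted p = 4e-05). Shares ran from 0.00241 through a median of 0.0373 to 0.261% at 0.5%, and from 0.500 through 1.46 to 3.78% at 2.5%, with no overlap. Acetatifactor rose from 4.07% ± 3.11 to 16.6% ± 13.96 (SD, n = 10 each; permutation test, adjusted p = 0.00197), with 9 of 10 libraries at 2.5% above the 0.5% mean. Without 2.5% replicate 9 the Acetatifactor difference was 8.61 points in place of 12.5 (permutation test, adjusted p = 0.00366). X.muris rose from 3.11% ± 3.12 to 11.8% ± 6.76 (SD, n = 10 each; permutation test, adjusted p = 0.00197), also in 9 of 10 libraries. D.muris stood at 5.42% ± 4.54 and 8.97% ± 4.75 (SD, n = 10 each; permutation test, adjusted p = 0.101), a difference that did not pass.

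**Figure D1:**
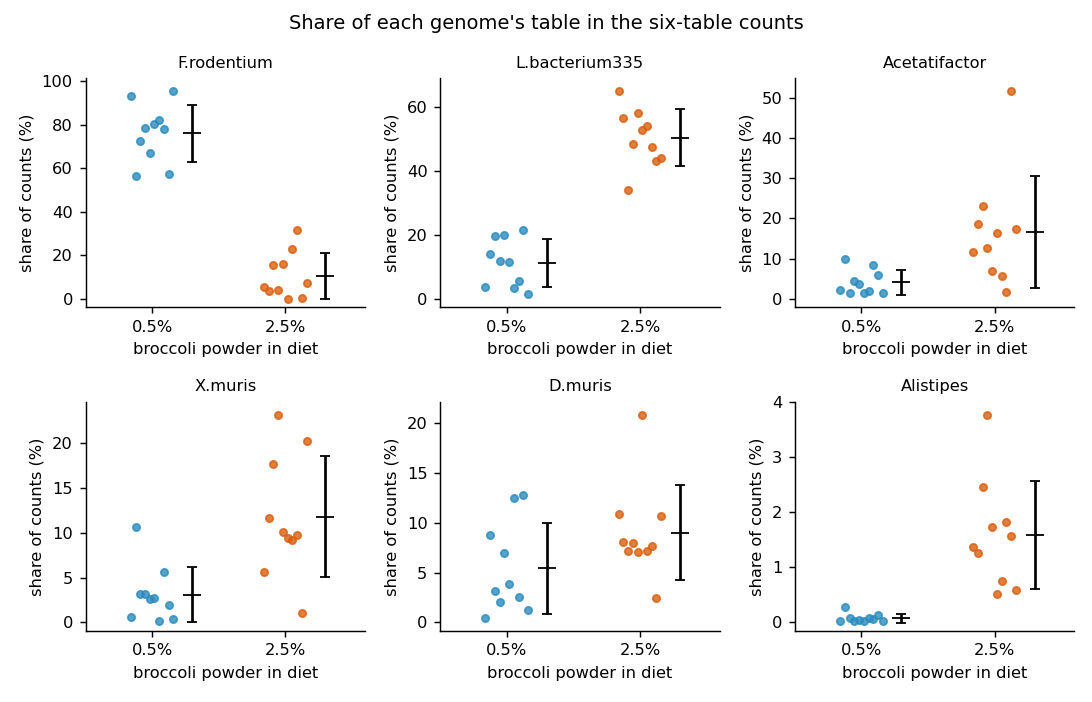
Each point is the share of 1 library's six-table counts (y axis, %) on the genome named above the panel, at 0.5% and 2.5% broccoli (x axis); the bar and whiskers are the mean and SD of 10 libraries. F.rodentium, L.bacterium335 and Alistipes have no overlap between the groups, and the single high Acetatifactor point at 51.7% is 2.5% replicate 9.

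Because the 6 shares are parts of 1 total, each was also computed on other scales. With F.rodentium taken out of the total, D.muris was lower at 2.5% by 12.8 points (difference -12.8, permutation test, adjusted p = 0.0351). On that scale Acetatifactor differed by -1.35 points (permutation test, adjusted p = 0.816), X.muris by 1.34 (adjusted p = 0.816, permutation test) and L.bacterium335 by 11.2 (adjusted p = 0.182, permutation test). Alistipes kept its rise there, by 1.58 points (permutation test, adjusted p = 0.000400). As centred log-ratios, which set each genome against the mean of all 6, L.bacterium335 was higher by 1.05 (permutation test, adjusted p = 0.0128) and Alistipes by 3.98 (permutation test, adjusted p = 6e-05). X.muris at 0.86 (permutation test, adjusted p = 0.141) and Acetatifactor at 0.40 (permutation test, adjusted p = 0.508) did not pass. Fewer cells of a bacterium and less RNA per cell cannot be told apart in these bulk samples.

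Summed by function over the 6 genomes, motility genes took a larger part of the counts at 2.5%, and glycolysis, PTS and glycogen genes a smaller part. Gene lists matched by symbol were summed over all 6 genomes and are described without a test. Flagella and chemotaxis genes, 66 features, held a median of 0.111% of the counts at 0.5% (0.0254 to 0.356%) and 1.33% at 2.5% (0.411 to 1.72%), with no overlap. L.bacterium335 held a median of 70.7% of that pool at 0.5% and 91.0% at 2.5%. PTS genes, 40 features, fell from a median of 2.38% (1.64 to 2.76%) to 0.234% (0.0144 to 0.717%), again with no overlap, and F.rodentium held a median of 99.5 and 72.0% of them. Glycolysis and pentose phosphate genes went from 10.6% (7.36 to 12.97%) to 2.50% (1.10 to 5.38%). Their source changed as well: F.rodentium supplied a median of 96.7% of this pool at 0.5% and 30.4% at 2.5%.

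Glycogen genes were the other pool without overlap, with a median of 2.74% at 0.5% (2.004 to 3.23%) and 1.42% at 2.5% (0.263 to 1.64%). The F.rodentium part of the glycogen pool had medians of 96.1 and 15.04%, and the L.bacterium335 part 1.95 and 56.6%. Butyrate pathway genes showed the same exchange, F.rodentium at 96.4 and 20.2% of the pool and L.bacterium335 at 0.890 and 54.2%, while the pool itself had medians of 0.605 and 0.361% and overlapped. Sugar and peptide ABC transporters had medians of 1.71 and 3.71%, with L.bacterium335 at 18.3 and 86.5% of the pool. Pectin and uronate breakdown genes, which act on a main sugar polymer of vegetable cell walls, had medians of 0.161 and 0.613%. L.bacterium335 held a median of 25.0% of them at 0.5% and 66.9% at 2.5%. The groups overlapped for ABC transporters and for pectin genes. The L.bacterium335 part of the glycogen, butyrate, ABC transporter and pectin pools also overlapped between the groups.

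**Figure D2:**
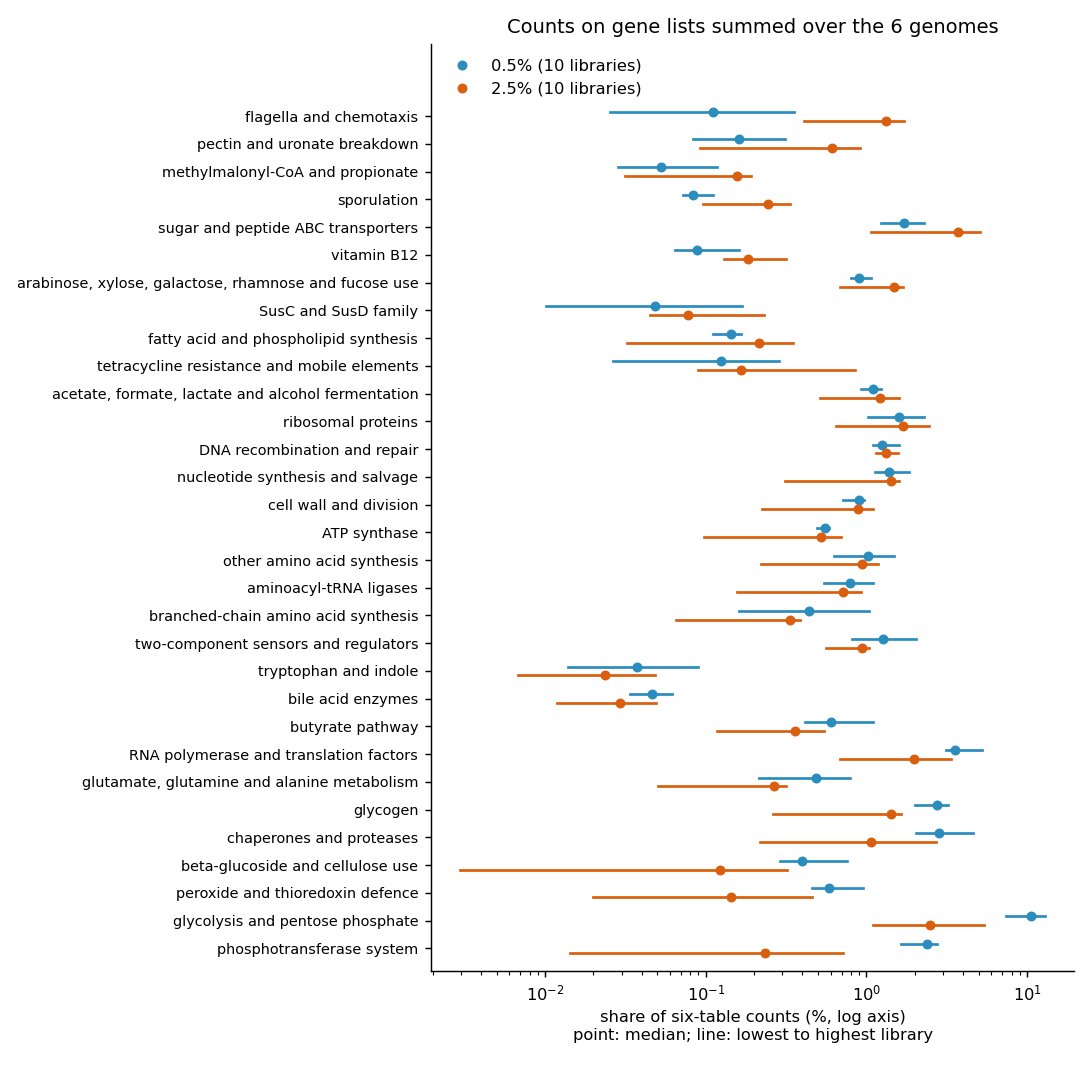
Share of the six-table counts (x axis, %, log scale) on each gene list (y axis), summed over the 6 genomes, for 10 libraries at 0.5% and 10 at 2.5%; points are medians and lines run from the lowest to the highest library. Flagella and chemotaxis, glycogen, glycolysis and PTS lists have lines that do not overlap; 31 of the 33 lists are drawn, those with a count in every library.

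Within F.rodentium, the genes with a symbol that changed most were tctD, which fell, and frlB, which rose. Of 1569 features tested, 47 were called (3%), 16 higher (1.02%) and 31 lower (1.98%) at 2.5%, relative to the rest of the same genome (edgeR quasi-likelihood test, Benjamini-Hochberg adjusted p under 0.05). At an unadjusted p under 0.05 there were 249, and DESeq2 called 100. With RLE factors, a scaling by the median ratio over features counted in every library, 43 were called, 19 higher and 24 lower. The median log2 fold change over all tested features, which TMM centres, was -0.01. The 31 lower features held a median of 9.90% of the F.rodentium counts at 0.5% (5.25 to 14.01%) and 3.76% at 2.5% (2.38 to 4.30%). That direction follows from their being called lower in the same libraries. Of the called features 17 had a symbol, and all are named here; levels are TMM-scaled CPM, the counts relative to the library's total on this genome, not adjusted for gene length.

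The largest rises among F.rodentium genes with a symbol were in frlB, glmS_2, agaC, manZ_1 and deoC. frlB, which encodes the enzyme that splits fructoselysine 6-phosphate, a product of heated sugars and proteins, had 20.4, 80.7 and 209.5 CPM (lowest, median, highest) at 0.5%. At 2.5% these were 166.7, 651.8 and 1863 CPM. The log2 fold change was 2.95 ± 0.47 (SE, edgeR adjusted p = 0.000412), with 8 of 8 libraries above the 0.5% mean. glmS_2, a copy of the aminotransferase that makes glucosamine 6-phosphate, had a median of 31.7 CPM at 0.5% and 357.9 CPM at 2.5% (log2 fold change 2.92 ± 0.50, edgeR adjusted p = 0.000892). agaC, a membrane component of an amino sugar PTS, had medians of 44.9 and 381.4 CPM (2.53 ± 0.53, edgeR adjusted p = 0.00561). manZ_1, a copy of a mannose-type PTS component, had medians of 42.1 and 326.2 CPM (2.52 ± 0.55, edgeR adjusted p = 0.00781). All 4 of these genes had groups that overlapped.

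deoC, the aldolase that returns deoxyribose from DNA breakdown to central metabolism, had 134.0, 189.5 and 416.2 CPM at 0.5% and 247.4, 1246 and 3036 CPM at 2.5%. Its log2 fold change was 2.49 ± 0.43 (SE, edgeR adjusted p = 0.000892), above the 0.5% mean in 8 of 8 libraries. Smaller rises were called for cutC_3 (1.94 ± 0.37), for the sodium and glucose cotransporter gene sglT (1.38 ± 0.32), for the folylpolyglutamate synthase gene fpgS_2 (1.16 ± 0.31) and for yodJ (0.79 ± 0.20). Their edgeR adjusted p ran from 0.00183 for cutC_3 to 0.0361 for fpgS_2. Each had 7 of 8 libraries at 2.5% above the 0.5% mean. Leaving out single libraries cost fpgS_2 its call in 12 of 18 cases and yodJ in 6 of 18.

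Among the genes that fell were ptsH and pfkA. ptsH encodes HPr, the phosphate carrier shared by all PTS sugars. It had 934.9, 1378 and 1742 CPM at 0.5% and 459.5, 721.9 and 1181 CPM at 2.5% (log2 fold change -0.84 ± 0.19, edgeR adjusted p = 0.0115). pfkA, the phosphofructokinase that commits sugar to glycolysis, had 1052, 1450 and 2148 CPM at 0.5% and 689.2, 889.2 and 1022 CPM at 2.5%. Its groups did not overlap, and it fell by 0.77 on the log2 scale (SE 0.17, edgeR adjusted p = 0.00781). Of the 19 glycolysis and pentose phosphate genes tested, pfkA was the 1 called, beside 3% over all features. Among the 19, 5 had a log2 fold change above 0. The list's median was -0.28, beside -0.01 over all features.

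mglB, the galactose-binding protein of an ABC transporter, had 272.5, 746.8 and 1808 CPM at 0.5% and 99.5, 162.6 and 318.0 CPM at 2.5% (-2.21 ± 0.39, edgeR adjusted p = 0.000964). All 8 libraries at 2.5% lay below the 0.5% mean, although the groups overlapped. It was the 1 of 17 sugar and peptide ABC transporter genes called, beside 3% over all features. femB, named for an enzyme that builds peptide bridges in the cell wall, had medians of 6716 and 3014 CPM (-1.08 ± 0.26, edgeR adjusted p = 0.0157). lnpD_2, a copy of a UDP-glucose 4-epimerase gene of galactose use, had medians of 438.2 and 197.6 CPM (-1.57 ± 0.43, edgeR adjusted p = 0.0450), and lost its call in 13 of 18 cases with a library left out.

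The regulator gene tctD had the largest fall among F.rodentium genes with a symbol. It had 1628 counts over the 10 libraries at 0.5%, from 8 to 1103 per library with 1103 in replicate 10, and 11 counts over the 8 at 2.5%, where 5 libraries had 0. The groups did not overlap, and the fitted log2 fold change was -3.94 ± 0.59 (edgeR adjusted p = 0.000254). The sigma factor gene sigM fell by 1.79 on the log2 scale (SE 0.40, edgeR adjusted p = 0.00888). ybhA, a phosphatase gene, fell by 0.61 (SE 0.17, edgeR adjusted p = 0.0450), and lost its call in 13 of 18 cases. Among called features with no symbol, gene:ENSB:iKrDi_BF_he1_tR, second in counts on this genome, held a median of 3.66% of its counts at 0.5% and 0.851% at 2.5% over all 10 libraries of each group (-2.11 ± 0.39, edgeR adjusted p = 0.00164).

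**Figure D3:**
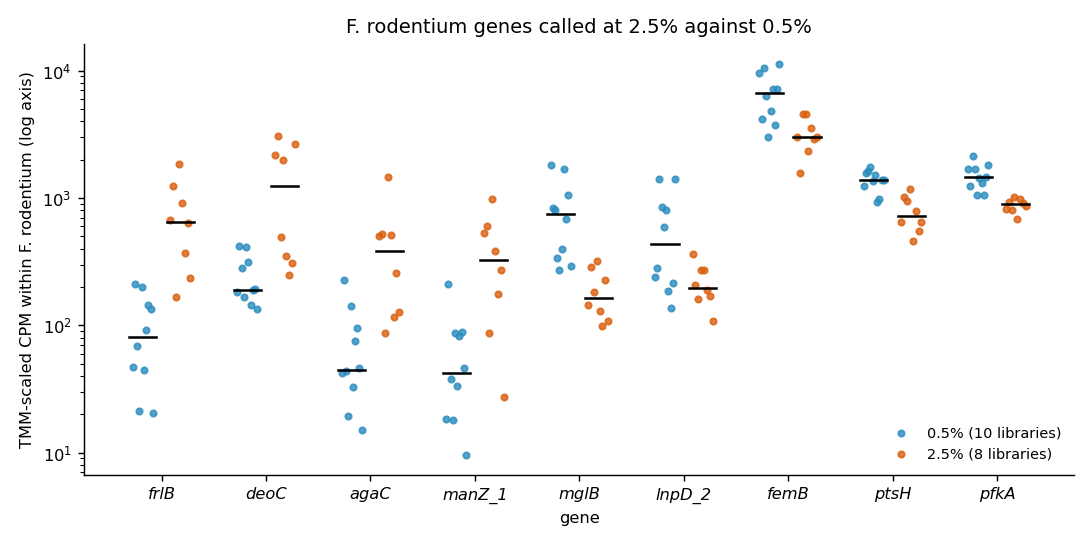
TMM-scaled CPM within F.rodentium (y axis, log scale) for 9 called genes (x axis); points are the 10 libraries at 0.5% and the 8 kept at 2.5%, and bars are medians. The 4 genes at the left are higher at 2.5%, frlB from a median of 80.7 to 651.8 CPM, and the 5 at the right are lower; pfkA is the gene drawn whose groups do not overlap.

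By list, the F.rodentium PTS genes had 2 members higher (agaC and manZ_1) and 1 lower (ptsH) of 17 tested, beside 3% called over all features, and a median of 0.03 beside -0.01. Ribosomal proteins had 0 of 43 called with a median of 0.08, and glycogen genes 0 of 10 with a median of -0.16. All 7 tested genes of tryptophan synthesis and indole had a log2 fold change above 0, with a median of 0.74, but 0 passed the test. Without the libraries numbered 76 to 81, 31 F.rodentium features were called, 11 higher and 20 lower. In that fit frlB (3.09, edgeR adjusted p = 0.00785), agaC, manZ_1, glmS_2, mglB, pfkA, ptsH and tctD were still called, whereas deoC (1.98, edgeR adjusted p = 0.0588), femB and 4 of the others were not.

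L.bacterium335 had counts on more features at 2.5%, a difference that was not called without the libraries numbered 76 to 81, and its fold changes depended on which of its features were taken as the reference. After thinning to 10000 counts a library had 1131 ± 215 features with a count at 0.5% and 1564 ± 435 at 2.5% (SD, n = 10 each; permutation test, adjusted p = 0.0209 over 10 measures). The 5 most counted features took 49.7% ± 10.3 of its counts at 0.5% and 24.2% ± 19.6 at 2.5% (SD, n = 10 each; permutation test, adjusted p = 0.0128). Without 2.5% replicate 9, which had 359.7 features at that depth, the first difference was 567.0 features in place of 433.2 (permutation test, adjusted p = 0.000108). The second was -31.6 points in place of -25.5 (permutation test, adjusted p = 0.000108). Without the libraries numbered 76 to 81 neither difference passed, at an adjusted p of 0.135 and 0.0559 (exact permutation test).

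Many of these features had no counts in the 0% group. Of 4661 L.bacterium335 features, 3483 had 0 counts in all 10 libraries of mice without broccoli. They took 17.4% ± 7.38 of the L.bacterium335 counts at 0.5% and 41.7% ± 15.5 at 2.5% (SD, n = 10 each; permutation test, adjusted p = 0.00204 over 5 genomes). The lowest, median and highest values were 8.399, 15.2 and 30.3% at 0.5%, and 0.235, 46.5 and 55.6% at 2.5%. The value of 0.235% was that of 2.5% replicate 9, and without it the difference was 28.9 points in place of 24.3. This measure was chosen after the data had been seen.

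With TMM factors, which centre the bulk of a genome's features, 190 of 1729 L.bacterium335 features were called (11%), 9 higher (0.521%) and 181 lower (10.5%). With RLE factors 1408 were called, 1380 higher and 28 lower, and with DESeq2 2333, 2273 higher and 60 lower. Of the 1729 features, 218 were counted in every library and so set the RLE factors, and 194 of these had counts in the 0% group. DESeq2 also scales by a median ratio over features counted in every library, so its count does not rest on a separate reference. The median log2 fold change over all tested features was 0.23 with TMM and 2.09 with RLE. Fold changes below are therefore best read against these medians. Without 2.5% replicate 9 the TMM fit called 307 features, 92 higher and 215 lower.

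The called features differed in their counts at 0%. Of the 181 lower features 176 (97.2%) had counts in the 0% group, and of the 9 higher features 0 did. Among the 1539 features not called, 271 (17.6%) had such counts. The low-count filter used both groups, and libraries held a median of 77243.5 counts on this genome at 0.5% and 525403.5 at 2.5%. Features near 0 at 0.5% could therefore enter the test through the 2.5% group alone, which limits what this split shows. The 1282 tested features with 0 counts at 0% had a median log2 fold change of 0.35 with TMM and 2.22 with RLE. The 447 with at least 1 count at 0% had medians of -1.24 and 0.85. Raw counts on the 181 lower features overlapped between the diets: 20471, 51388 and 115981 per library at 0.5% (lowest, median, highest), and 43969, 71091 and 97079 at 2.5%. As a percent of the L.bacterium335 counts the medians were 64.6 and 13.1%. The 181 features were picked as lower in these same libraries, so the direction of that difference was set by the choice. Whether reads from other bacteria add to their counts was not tested.

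**Figure D4:**
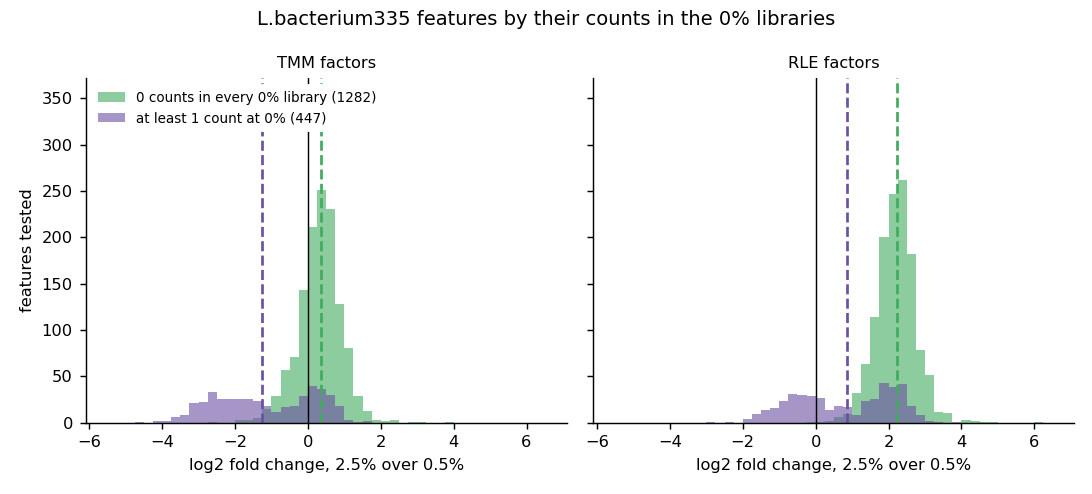
Number of L.bacterium335 features (y axis) by log2 fold change at 2.5% over 0.5% (x axis) with TMM factors (left) and RLE factors (right), for 1282 features with 0 counts in every 0% library and 447 with at least 1; dashed lines are medians. The features without 0% counts form 1 peak, and those with 0% counts form a second group below it, in both panels; RLE moves both to the right.

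The features that were lower relative to the rest of L.bacterium335 included regulators and genes of mobile DNA. Of 5 tested genes of tetracycline resistance and mobile elements 4 were lower with TMM, beside 10.5% over all features. The median of the 5 was -2.57 (TMM) and -0.36 (RLE). Int-Tn_5, a copy of a Tn916-type integrase gene, had 161 to 521 counts per library at 0.5% and 204 to 640 at 2.5%. The counts overlapped, and as CPM the medians were 7588 and 448.8 (-3.18 ± 0.62, edgeR adjusted p = 2.5e-05; RLE -1.33, edgeR adjusted p = 0.0213). Int-Tn_4, another copy, had medians of 8930 and 680.0 CPM (-2.86 ± 0.61, edgeR adjusted p = 9.67e-05; RLE -0.96, edgeR adjusted p = 0.0809). mecI_1 and mecI_2, copies of a resistance gene repressor, had log2 fold changes of -3.34 ± 0.63 (edgeR adjusted p = 1.1e-05) and -3.16 ± 0.64 (edgeR adjusted p = 4.5e-05). Without 2.5% replicate 9 the log2 fold changes were -4.06 for mecI_1, -3.92 for mecI_2 and -3.87 for Int-Tn_5, each still called. mecI_1 had 30 to 119 counts per library at 0.5% and 31 to 110 at 2.5%.

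Two-component sensors and regulators, which let bacteria respond to outside signals, had 12 of 44 tested members lower and 0 higher with TMM. Over all features 10.5% were lower and 0.521% higher. With RLE 0 of the 44 were lower and 29 higher, beside 1380 of 1729 features higher over the genome. The list's median was 0.03 with TMM and 1.89 with RLE, below that of all features in both. rcsC_21, a copy of a sensor kinase gene, had -3.13 ± 0.62 (edgeR adjusted p = 3.57e-05) and regX3_3, a copy of a response regulator gene, -3.12 ± 0.64 (edgeR adjusted p = 5.75e-05). Of 34 genes of DNA recombination and repair 4 were lower, a share near the 10.5% over all features. Among them were recF_1 (-2.84 ± 0.62, edgeR adjusted p = 0.000148) and the recombinase gene xerC_11 (-2.66 ± 0.61, edgeR adjusted p = 0.000292). rhaS_2, a copy of a sugar-responsive regulator gene, had -2.73 ± 0.62 (edgeR adjusted p = 0.000294). With RLE these 5 genes had values from -1.16 to -0.63, and their edgeR adjusted p ran from 0.0554 to 0.315.

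A further 5 lower genes had smaller falls with TMM, and since RLE moves the whole genome upward, their RLE values are to be read against its median of 2.09. rpsK and rpmA, ribosomal protein genes, had -1.79 ± 0.63 (edgeR adjusted p = 0.0382) and -1.90 ± 0.62 (edgeR adjusted p = 0.0232) with TMM, and 0.65 and 0.39 with RLE. They were the 2 called of 42 ribosomal protein genes tested, beside 10.5% called lower over all features. melD_1, a copy of a sugar transporter permease gene, had -1.88 ± 0.61 (edgeR adjusted p = 0.0215) with TMM and 0.46 with RLE. hisC_3, of histidine synthesis, had -2.09 ± 0.60 (edgeR adjusted p = 0.00601) with TMM and -0.10 with RLE. sspC2, a spore protein gene, had -2.57 ± 0.63 (edgeR adjusted p = 0.000796) with TMM and -0.01 with RLE; without 0.5% replicate 2, which held 84 of its 144 counts at 0.5%, it had -1.21 (edgeR adjusted p = 0.363).

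The higher features with TMM included 3 genes with a symbol. asnO, an asparagine synthetase gene, had 24 counts over the 10 libraries at 0.5%, 0 in 5 of them, and 1269 over those at 2.5%. Its log2 fold change was 2.33 ± 0.70 (edgeR adjusted p = 0.00979). mdtA_1, a copy of an efflux pump subunit gene, had 32 and 953 counts (2.08 ± 0.67, edgeR adjusted p = 0.0196), and without 2.5% replicate 5 it had 1.16 (edgeR adjusted p = 0.385). ilvB_2, a copy of the acetolactate synthase gene of branched-chain amino acid synthesis, had 17 and 480 counts (1.98 ± 0.68, edgeR adjusted p = 0.0349), and lost its call in 9 of 20 cases with a library left out. All 3 had 0 counts in the 0% group and in 2.5% replicate 9. Without the libraries numbered 76 to 81, asnO was called (edgeR adjusted p = 0.0367), and ilvB_2 (edgeR adjusted p = 0.297), mdtA_1 (edgeR adjusted p = 0.219), hisC_3, melD_1, rpmA and rpsK were not.

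Most metabolic and motility lists of L.bacterium335 moved with the bulk of its features. Of 36 tested flagella and chemotaxis genes 0 were called, with a median of 0.26 beside 0.23 over all features (TMM). With RLE 34 of them were higher, beside 1380 of 1729 over all features, with a median of 2.10 beside 2.09. Glycogen genes had 0 of 12 called and a median of 0.41, pectin and uronate genes 0 of 12 and -0.08, and butyrate pathway genes 0 of 7 and 0.98. Without 2.5% replicate 9, 3 of the butyrate genes were higher and their median was 1.14. That fit also called more features higher over the whole genome than the main fit, as given above. The median of 0.23 over all features belongs to the main fit. By counts, the leading L.bacterium335 gene with a symbol was mglB_1, a copy of a galactose-binding transporter gene. It held a median of 1.74% of the L.bacterium335 counts at 0.5% and 3.36% at 2.5%, with 0.00491% in 2.5% replicate 9. pflB_1, a pyruvate formate-lyase gene of mixed-acid fermentation, held 0.557 and 1.04%, and the flagellar cap gene fliD 0.357 and 0.744%. fliD ranked 4 among genes with a symbol, behind agrB. The ranking used the counts of both groups together, most of them at 2.5% (178244 for mglB_1, against 20658 at 0.5%). A higher percent at 2.5% was therefore partly set by the choice of genes.

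Acetatifactor, a genus of mouse cecal bacteria named for making acetate, also spread its counts over more features. At 10000 counts a library had 1054 ± 452 features at 0.5% and 1675 ± 518 at 2.5% (SD, n = 10 each; permutation test, adjusted p = 0.0209). The 5 most counted features took 42.8% ± 10.8 and 29.99% ± 9.50 (SD, n = 10 each; permutation test, adjusted p = 0.0209). Without the libraries numbered 76 to 81 these differences had an adjusted p of 0.0559 each (exact permutation test). Of 694 features tested 1 was called (0.144%), 0 higher (0%) and 1 lower (0.144%), and 81 had an unadjusted p under 0.05. That feature, LHPMNMPM_00288, carries no symbol; it had 881 counts over the 0.5% libraries and 81 over the 2.5% libraries (-5.06 ± 0.84, edgeR adjusted p = 0.000891). Its log2 fold change without 2.5% replicate 9 was -5.67 (edgeR adjusted p = 3.48e-06).

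The Acetatifactor count turned on single libraries and on the scaling. Without 2.5% replicate 8, which held 1.71% of its six-table counts on Acetatifactor and had the largest TMM factor (3.84), 169 features were called, 89 higher and 80 lower. Without 2.5% replicate 9 there were 29, 3 higher and 26 lower, and over all 20 leave-outs the count ran from 1 to 169. RLE factors gave 86, 82 higher and 4 lower, with the median log2 fold change at 1.67 in place of 0.62. Beside that TMM median, acetate, formate, lactate and alcohol fermentation genes had a median of 1.03 with 9 of 9 above 0, ribosomal proteins 1.20 with 11 of 11 above 0, and sugar and peptide ABC transporters 1.57 with 8 of 10. The 4 tested genes of mobile elements were all below 0, with a median of -1.19, and -0.57 with RLE. None of these list members was called with TMM. The genes named next were ranked by counts over both groups, most of them at 2.5%, so higher percents there are partly set by that choice. By counts, agpA led the Acetatifactor genes with a symbol, at a median of 0.135% of the table at 0.5% and 1.15% at 2.5%, followed by pflB_2 at 0.590 and 1.11% and pckA, which makes phosphoenolpyruvate from oxaloacetate, at 0.485 and 1.10%.

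X.muris had the narrowest profile at 0.5%, led by 1 feature. HPS56_RS12595, which carries no symbol, took a median of 80.5% of the X.muris counts over all 10 libraries at 0.5% (44.7 to 96.1%) and 49.4% at 2.5% (39.3 to 97.4%). Its highest value at 2.5% was that of replicate 9, which the test left out. At 10000 counts X.muris had 691 ± 365 features at 0.5% (SD, n = 7) and 1234 ± 145 at 2.5% (SD, n = 9; exact permutation test, adjusted p = 0.0128). The 5 most counted features took 77.8% ± 16.8 (SD, n = 7) and 53.97% ± 8.04 (SD, n = 9; exact permutation test, adjusted p = 0.0128).

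Of 749 X.muris features tested 44 were called (5.87%), 19 higher (2.54%) and 25 lower (3.34%), with a median log2 fold change of 0.19. gdhA, glutamate dehydrogenase, had 0, 253.2 and 1284 CPM at 0.5% (lowest, median, highest) and 1015, 1329 and 1616 at 2.5% (1.09 ± 0.33, edgeR adjusted p = 0.0316). ald, alanine dehydrogenase, had medians of 80.2 and 270.0 CPM (1.66 ± 0.49, edgeR adjusted p = 0.0262). These 2 nitrogen metabolism genes were the whole of the glutamate, glutamine and alanine list that was tested, and both rose. clpP, a protease subunit gene, had 0 to 160.5 CPM at 0.5% and 249.8 to 656.9 CPM at 2.5%, with no overlap (1.48 ± 0.44, edgeR adjusted p = 0.0258). feoB, the ferrous iron transporter gene, had 0 to 141.9 CPM and 156.5 to 567.3 CPM, also with no overlap (1.92 ± 0.50, edgeR adjusted p = 0.0104).

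These rises rested on few counts at 0.5%. clpP had 28 counts over the 7 libraries there and 587 over the 9 at 2.5%, feoB 20 and 560, ald 18 and 482, and gdhA 183 and 2395. With a library left out in turn, feoB kept its call in 16 of 16 cases, while gdhA lost it in 6, ald in 3 and clpP in 3. Without the libraries numbered 76 to 81 feoB was called (2.38, edgeR adjusted p = 0.0153), whereas gdhA (1.18, edgeR adjusted p = 0.0621), ald (1.43, edgeR adjusted p = 0.137) and clpP (1.45, edgeR adjusted p = 0.0868) were not.

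Among the lower X.muris features, mobV_1, a copy of a plasmid mobilisation gene, had 635.3, 1130 and 2806 CPM at 0.5% and 148.7, 502.6 and 869.5 CPM at 2.5% (-1.66 ± 0.32, edgeR adjusted p = 0.000152). All 9 libraries at 2.5% lay below the 0.5% mean, and 16 of 16 leave-outs kept the call. It was the 1 lower feature with a symbol. A run of 5 lower features carried successive locus tags, numbered 05270 to 05290 in steps of 5, with log2 fold changes from -3.29 to -1.74. HPS56_RS05300, close by in the numbering, had the smallest p of the genome (-3.04 ± 0.31, edgeR adjusted p = 2.48e-12), with 1070 counts at 0.5% and 1191 at 2.5%. With HPS56_RS12595 left out of the library sizes and the test, 35 of 1522 features were called, 8 higher and 27 lower. In that fit 3 of the 5 X.muris genes named here lost their call and 2 kept it. With all 4 groups in the fit 3 of the 5 lost it, and 4 did with a library minimum of 50000. X.muris ribosomal proteins had 0 of 28 called with a median of 0.14, near the genome's own.

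D.muris had few called genes, among them nadB, which rose, and susC_3, which fell. At 10000 counts it had 1380 ± 97.6 features at 0.5% (SD, n = 9) and 1444 ± 93.6 at 2.5% (SD, n = 9; exact permutation test, adjusted p = 0.217). Of 1049 features tested 11 were called (1.05%), 3 higher (0.286%) and 8 lower (0.763%), with a median log2 fold change of 0.03. nadB, the first enzyme of NAD synthesis from aspartate, had 198.3, 285.2 and 521.8 CPM at 0.5% and 462.8, 563.0 and 931.5 CPM at 2.5% (0.98 ± 0.22, edgeR adjusted p = 0.0376). All 9 libraries at 2.5% lay above the 0.5% mean. susC_3, a copy of the outer-membrane importer of starch-type glycans, had 1614, 4248 and 5703 CPM at 0.5% and 761.2, 1886 and 2991 CPM at 2.5% (-1.04 ± 0.25, edgeR adjusted p = 0.0430). All 9 libraries at 2.5% lay below the 0.5% mean, and both genes had groups that overlapped.

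The SusC and SusD list of D.muris had 5 genes tested, susC_3 among them: 1 was called, 0 lay above 0 and the median was -0.40 beside 0.03 over all features. The rest did not pass, with susC_1 at -1.03 and susD at -0.40 (edgeR adjusted p = 0.279 and 0.511). Pectin and uronate genes had 0 of 11 called with a median of -0.06, and arabinose, xylose, galactose, rhamnose and fucose genes 0 of 18 with 0.04. The D.muris calls were close to the threshold. With a library left out in turn the count ran from 0 to 24, moving by more than 1.5 times in 15 of 18 cases, and nadB lost its call in 10 and susC_3 in 14 of them. Without the libraries numbered 76 to 81 the count was 0 by edgeR, with 143 features at an unadjusted p under 0.05, while DESeq2 on all libraries called 28.

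**Figure D5:**
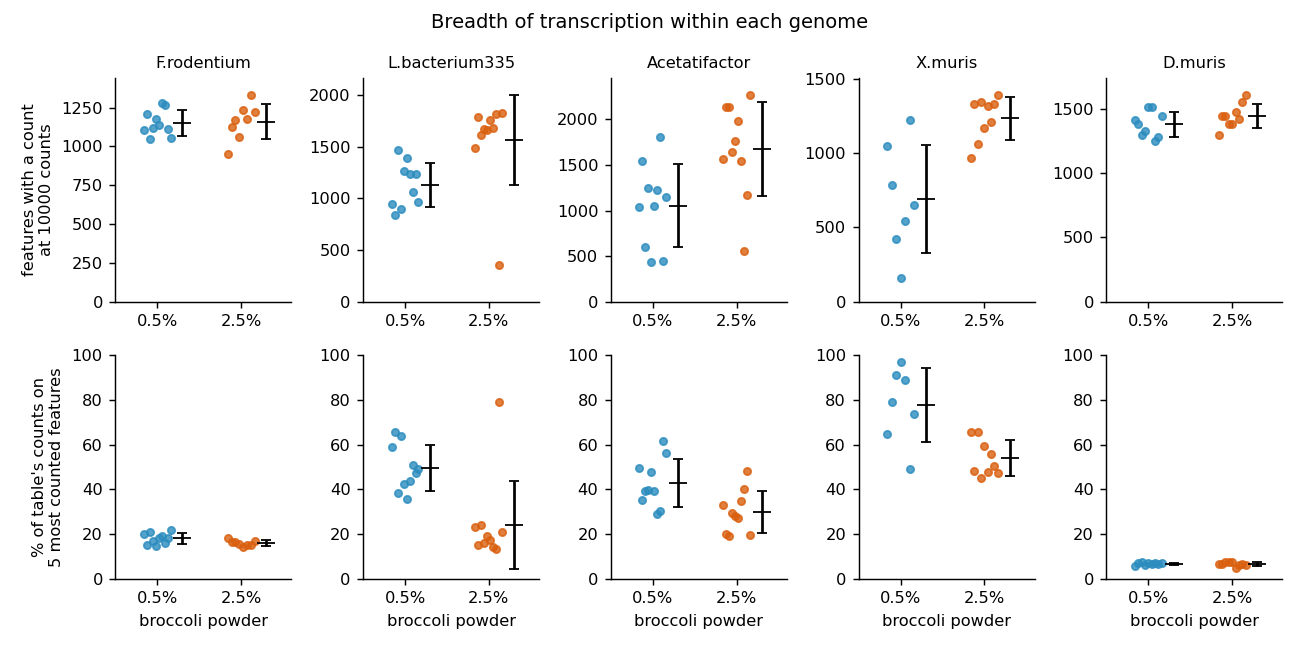
Top row: expected number of features with a count after thinning each library to 10000 counts (y axis); bottom row: percent of a genome's counts on its 5 most counted features (y axis), at 0.5% and 2.5% broccoli (x axis), with the mean and SD. L.bacterium335, Acetatifactor and X.muris have a higher mean number of features and a lower mean on the top 5 at 2.5%. Libraries on the other side of the 0.5% mean are 2.5% replicate 9 in L.bacterium335 (359.7 features, 79.1%), and in Acetatifactor 2.5% replicate 8 (555.3 features) and replicate 9 (48.2%).

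The F.rodentium breadth measures did not pass the test. It had 1152 ± 81.3 features at 10000 counts at 0.5% (SD, n = 10) and 1159 ± 114 at 2.5% (SD, n = 8; exact permutation test, adjusted p = 0.870). Its 5 most counted features took 18.2% ± 2.46 and 16.0% ± 1.20 (SD, n = 10 and 8; exact permutation test, adjusted p = 0.0552). The most counted was gap, the glycolytic glyceraldehyde 3-phosphate dehydrogenase gene, at a median of 6.24% of the F.rodentium counts at 0.5% and 5.51% at 2.5% over all 10 libraries of each group. D.muris was likewise even, with 6.75% ± 0.537 and 6.62% ± 0.883 on its top 5 (SD, n = 9 each; exact permutation test, adjusted p = 0.802).

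The share on features with no counts at 0% also rose outside L.bacterium335, at much lower levels. It was 1.99% ± 1.65 at 0.5% and 6.08% ± 3.73 at 2.5% in Acetatifactor (SD, n = 10 each; permutation test, adjusted p = 0.00655). In X.muris it was 0.502% ± 0.416 (SD, n = 7) and 1.39% ± 0.417 (SD, n = 9; exact permutation test, adjusted p = 0.00204). In F.rodentium it was 0.0218% ± 0.00990 (SD, n = 10) and 0.0604% ± 0.0192 (SD, n = 8; exact permutation test, adjusted p = 0.000457). D.muris showed 0.174% ± 0.109 and 0.183% ± 0.124 (SD, n = 9 each; exact permutation test, adjusted p = 0.865).

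Alistipes, whose genes could not be tested under the library minimum, had counts on many more of its features at 2.5%. The 10 libraries at 0.5% together held 4667 counts on 861 of 1713 features, and those at 2.5% held 161531 counts on 1624. Alistipes was not thinned to an equal depth, so this difference was not separated from the larger number of counts. The 0% group held 1620 counts and the 1% group 11846. tufA, the elongation factor Tu gene, had 21 counts over the 0.5% group, in 6 of 10 libraries, and 1255 over the 2.5% group, in 10 of 10. btuB_2, a copy of the outer-membrane vitamin B12 receptor gene, had 41 and 995 counts, and bepE_2, a copy of an efflux transporter gene, 18 and 939. ppdK, pyruvate phosphate dikinase, had 14 and 910, and the RNA polymerase gene rpoB 31 and 874. These genes were ranked by counts over both groups, most of them at 2.5%. The total on this genome also went from 4667 to 161531 counts, so a rise in raw counts says nothing of a single gene. As a percent of the Alistipes counts, btuB_2 had a median of 0.633 at 0.5% and 0.559 at 2.5%, and tufA 0.158 and 0.808. The medians of bepE_2, ppdK and rpoB were also higher at 2.5%, but at 0.5% these genes had counts in only 5, 4 and 5 of 10 libraries. Pooled over each group, rpoB and btuB_2 took a smaller part of the Alistipes counts at 2.5%, and tufA, bepE_2 and ppdK a larger part. With no library minimum 21 Alistipes features could be tested; 0 were called by edgeR and 3 had an unadjusted p under 0.05, and DESeq2 was not run on this genome.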

How the data were processed

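Cecal RNA was extracted, depleted of bacterial ribosomal RNA and made into KAPA libraries, per the labels' protocols. The authors deposited raw counts per feature in 6 tables, 1 per genome; every column matched 1 library by name. The sources used here name no aligner, counter or build. How reads shared by gene copies (numeric suffix) or by different genomes were counted is not stated. The separate counts of copies are therefore uncertain, and a genome's counts may include reads from other bacteria. No bacterial sequence or coordinate was used here. A symbol was present for 18.4% (X.muris) to 49.2% (Alistipes) of features.

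Each table was fitted alone on the 20 libraries of both groups with at least 10000 counts in it: filterByExpr, TMM factors and edgeR 4.0.16 glmQLFit and glmQLFTest (R 4.3.3), two-sided, Benjamini-Hochberg within the table, threshold 0.05. The SE of a log2 fold change is its size over the square root of F. Shares, breadth (expected features at 10000 counts and the percent on the 5 most counted) and the percent on features with 0 counts in every 0% library were compared with two-sided permutation tests (100000 resamples, exact enumeration where a group had under 10 libraries; scipy 1.17.1), adjusted within 6, 10 and 5 tests. Replicate numbers follow accession order and pair nothing. Labels name separate samples only, so p-values measure the spread between these libraries, which may be technical. No 2 of 90 within-group pairs were identical, and the smallest chi-square per degree of freedom was 10.6.

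Per genome, the 4 largest changes each way were named, out of called features that have a symbol and whose mean log2 CPM reaches the median of those tested, with up to 2 called members per gene list by smallest p. The rule gave 30 genes; 11 more were chosen after their values were seen, and all 41 are named. Genes named by their counts (gap, mglB_1 and the like) are the most counted with a symbol over both groups together. The group with more counts on a genome weighs more in that choice. Members, the 33 lists and tests were chosen with earlier results of these data known. Scripts were tested on simulated data. Alternatives were RLE and TMMwsp factors, DESeq2 1.42.0, other filters and library minimums, thinning, all 4 groups in 1 fit, a robust fit, no stable RNA, library numbers 76 to 81 left out or as a term, single libraries left out, and 3 added after the data were seen: leave-outs for the measure on features with no counts at 0% (itself chosen then), X.muris without its most counted feature, and L.bacterium335 scaled on features with no counts at 0%.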

Additional observations from a re-analysis of the deposited data

Results flagged for a closer look

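In 124 groups of 4 to 10 libraries the highest or lowest value was set against the others with Dixon's gap test, which by chance marks about 1 group in 20, and 12 were marked. Of these, 7 were 2.5% replicate 9. Its Acetatifactor share of 51.7% compares with a group median of 14.5%. In L.bacterium335 it had 359.7 features at 10000 counts (median 1673), 79.1% of counts on the 5 most counted features (median 18.1%) and 0.235% on features with no counts at 0% (median 46.5%). Its log2 CPM was 9.49 for mecI_1 (median 6.43), 8.22 for mecI_2 (median 5.36) and 2.32 for ilvB_2 (median 6.25).

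The library 0.5% replicate 2 had an X.muris share of 10.7% (median 2.69%) and an Alistipes share of 0.261% (median 0.0373%). The D.muris share of 2.5% replicate 6 was 20.8% (median 7.78%), and 0.476% of the D.muris counts of 2.5% replicate 10 lay on features with no counts at 0% (median 0.143%). The log2 CPM of clpP in X.muris was 3.92 in 0.5% replicate 5, which had 0 counts for it (median 6.96).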

How the results depend on the processing

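The F.rodentium, L.bacterium335 and Alistipes shares, and all 5 percentages on features with no counts at 0%, kept their direction and side of the threshold in every alternative run, except L.bacterium335 without F.rodentium in the total (11.2 points, permutation test, adjusted p = 0.182) and the sign of the D.muris percentage, which was not called. Without F.rodentium, Acetatifactor was -1.35, D.muris -12.8 and X.muris 1.34 points; as centred log-ratios Acetatifactor was 0.40 and X.muris 0.86, neither passing. The D.muris share passed without libraries 76 to 81 (4.58 points) and ranged from 2.24 to 4.37 with a library left out, passing without 0.5% replicate 7 or 9. Without libraries 76 to 81, features at fixed depth differed by 624.4 in Acetatifactor and 400.0 in L.bacterium335, and the top 5 percentage by -10.6 and -26.4, none passing. The F.rodentium top 5 difference ran from -2.51 to -1.72 with a library left out, passing in 4 of the 18 cases, and was -2.85 over 10 features, which passed.

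Counts of called features moved as follows, against 1 for Acetatifactor, 11 for D.muris, 47 for F.rodentium, 190 for L.bacterium335 and 44 for X.muris. DESeq2 gave 1447, 28, 100 and 2333 for the first 4. RLE gave 86 (Acetatifactor) and 1408 (L.bacterium335). Thinning to 10000 counts gave 9, 4, 10, 17 and 14. No low-count filter gave 161, 7 (D.muris) and 312 (L.bacterium335). All 4 groups in the fit gave 71, 5 (D.muris) and 26 (X.muris). A library minimum of 50000 gave 0 in Acetatifactor (206 features at an unadjusted p under 0.05) and 0 in D.muris (92), where no minimum also gave 0 (96). TMMwsp gave 2 in Acetatifactor. Without libraries 76 to 81 the count was 0 in D.muris and 31 in F.rodentium, and with a term for them 3 in D.muris. With a library left out the range was 1 to 169 in Acetatifactor, 0 to 24 in D.muris and 151 to 307 in L.bacterium335. L.bacterium335 scaled on features with no counts at 0% gave 7, and 278 (33 higher, 245 lower) with 2.5% replicate 9 also left out. The cause was not tested, apart from the smaller number of features tested after thinning.

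RLE and DESeq2 raise the fold changes of the L.bacterium335 features as a whole (median 2.09 with RLE, 0.23 with TMM), so a value above 0 there says nothing of a single gene. Values above 0 were those of melD_1 (0.46 with RLE, 0.49 with DESeq2), rpmA (0.39, 0.42), rpsK (0.65, 0.68), sspC2 (0.0105 with DESeq2) and hisC_3 (0.51 scaled on features with no counts at 0%). Of the 41 named genes 25 kept their call with every single library left out, 24 without libraries 76 to 81 and 28 with RLE. The 17 named in L.bacterium335 were less stable: 6 kept their call with RLE and 6 with no low-count filter. Scaled on features with no counts at 0%, 1 of the 17 kept its call, 15 lost it and 1 changed sign. For Alistipes the alternatives other than no library minimum could not be run. No paired analysis was possible because replicate numbers follow accession order and the labels give none. Depth limits the 0.5% values most in Alistipes, with at most 1508 counts per library, and in X.muris genes with few counts there.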
